A study of Mus musculus with 38 samples.

Results

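Phenobarbital fed for 4 days was compared with control feed in mouse liver, on 10 of the 38 arrays of a study that set tumorigenic triazole fungicides against phenobarbital. The 10 arrays were chosen by their labels: 5 from mice given phenobarbital at 850 ppm in the feed for 4 days and 5 from the controls of that same experiment and day. All were male CD-1 mice, an outbred stock, 6 to 8 weeks old, and the labels give the average phenobarbital intake as 97.2 ± 5.9 mg/kg/day. Total RNA of frozen liver was amplified, labelled with biotin and hybridised to Affymetrix mouse arrays, and each array carries its own biological replicate number. Nothing in the labels states that mice were pooled or that litters or cages were balanced. Animals differ genetically in an outbred stock, and the spread within a group includes that.

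Phenobarbital is a barbiturate sedative and the classical inducer of drug metabolism in rodent liver. It does not bind the constitutive androstane receptor (CAR, encoded by Nr1i3) directly but lowers epidermal growth factor receptor signalling, after which CAR moves into the hepatocyte nucleus, pairs with the retinoid X receptor and activates Cyp2b genes and other genes of oxidation, conjugation and export. The same receptor drives liver growth and hepatocyte division during the first days of treatment, and phenobarbital promotes liver tumours in mice.

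Levels are given as log2(intensity + 16) after quantile normalisation, so that 4 is the lowest possible value and a change of 1 is a doubling for bright genes and more than that for dim genes. Background was set at a level of 5.65 from 38 olfactory receptor genes, whose mean levels lay below it in 95% of cases. Some of these genes themselves passed the test as higher after phenobarbital, with means of up to 7.14 against 5.98 in controls (adjusted p = 0.013). Not all of them are therefore unchanging references. Where no array of a group exceeded background, the difference is a lower bound, written as at least N-fold. For that bound each array of the dim group counted at background or at its own level, whichever was larger. Errors of group means are SDs over 5 arrays and errors of changes are standard errors from limma. Every adjusted p is from limma with Benjamini-Hochberg adjustment over all genes tested.

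The 10 arrays had deposited medians of 25.0 to 29.5 and highest intensities of 14883 to 17398, and neither measure separated the groups (exact permutation test, two-sided p = 0.82 and 0.32). An array's mean correlation with its own group was 0.975 to 0.979 after phenobarbital and 0.97 to 0.976 in controls. The same permutation test gave p = 0.048 for it, although correlations within a group are not independent. The 13 measured hepatocyte markers averaged 13.01 to 13.10 per array after phenobarbital and 13.07 to 13.14 in controls, and none of them passed the test. Control array 1 stood apart by pancreatic transcripts. Cpa1, a pancreatic carboxypeptidase, had a level of 12.70 there, 6.18 on control array 2 and 4.00 on control arrays 3, 4 and 5, while the treated arrays read 4.62 on array 1 and 4.00 on the others. Ctrb1, a chymotrypsinogen, read 13.53 and 7.83 on control arrays 1 and 2 and 4.79 to 5.73 on the other controls. Phenobarbital array 1 stood apart by Krt19, a bile duct keratin, at 9.84 against 4.42 to 5.83 on the other treated arrays, by Mgst2 at 8.29 against 4.81 to 5.43, and by the pancreatic colipase Clps at 10.82 against 4.47 to 5.99. Without both arrays, which left 8, the call ended for 50 of the 71 called genes named below (adjusted p up to 0.21). It was kept for Cyp2c55, Cyp2c65, Cyp2b10, Cyp2g1, Cyp2c54, Cyp2c50, Cyp1a2, Gstm2, Gstm3, Ces2a, Ugt2b34, Abcc3, Abcc4, Ahr, Srxn1, Gadd45a, Lect2, Nsl1, Thap6, Meig1 and Camk1d.

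**Figure D1:**
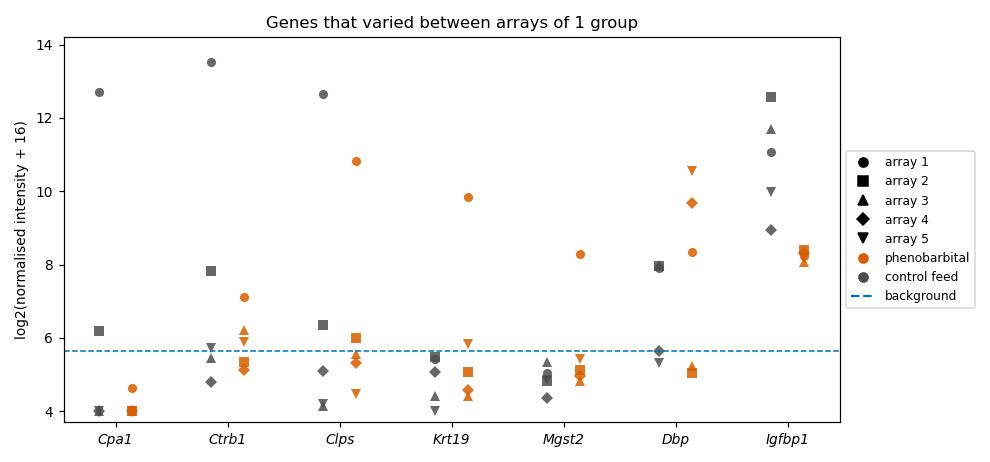
Levels of 7 genes, as log2(normalised intensity + 16), on each of the 5 phenobarbital arrays (orange) and the 5 control arrays (grey), with a marker shape per array and background as a dashed line. Cpa1, Ctrb1 and Clps are high on control array 1, Krt19, Mgst2 and Clps are high on phenobarbital array 1, Dbp varies within both groups, and Igfbp1 varies among controls only while all treated arrays lie between 8.07 and 8.40.

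The rises after phenobarbital were led by P450 genes but included many genes outside drug metabolism, and few genes fell by more than 2-fold. Of 17211 genes tested, 335 passed (1.95%), 227 higher (1.32%) and 108 lower (0.628%), with 57 rises and 11 falls above 2-fold. Counts of called members in the gene lists below are to be read against these shares. The groups of arrays did not overlap for 325 of the 335, against 5.39% of all genes (3.02% with treated above controls and 2.37% below), and the median change of all genes was 0.00. The 335 were chosen by the test between these same arrays, which favours separate groups, so that count adds no support to the calls. Of the 335, 300 had a brighter group above background. The share of rises among the calls depended on the scaling: 67.8% as given here, 78.1% with median centring (146 higher and 41 lower) and 86.7% on the values as deposited (137 higher and 21 lower). Without control array 1 the count fell to 122, and without control array 1 and phenobarbital array 1 together to 72 (62 higher and 10 lower), 58 of them among the 335. It was also more than 1.5 times smaller without phenobarbital array 1 (164), 2 (164), 3 (130) or 5 (108 higher and 39 lower) and without control array 3 (208), 4 (160) or 5 (219). Of 71 called genes named below, 29 stayed called whichever single array was left out.

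The largest changes were in cytochrome P450 genes of the 2B and 2C families. Cyp2c55, a P450 that oxidises arachidonic acid, had levels of 12.73, 12.73, 13.02, 12.62 and 12.78 on the phenobarbital arrays and 7.16, 8.11, 7.79, 7.22 and 7.36 on the control arrays, a change of 5.25 ± 0.17 or 38-fold (adjusted p = 2.2e-07). Cyp2b10, the standard marker of CAR activation, had levels of 13.13, 13.11, 13.19, 13.11 and 13.08 after phenobarbital and 9.52, 9.38, 9.83, 9.13 and 9.86 in controls, a change of 3.58 ± 0.12 or 12-fold (adjusted p = 2.2e-07). For both genes every treated array lay far above every control, and the treated arrays were tightly grouped near the top of the scale, whose highest value was 13.99. The 3 probe sets of Cyp2b10 gave changes of 3.58 to 4.94, the smallest of them from the brightest probe set.

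Cyp2c65 went from background to a clear signal. Its levels were 9.46, 9.86, 8.91, 8.44 and 8.59 after phenobarbital and 4.00, 4.01, 4.00, 4.00 and 4.23 in controls, a difference of at least 10.6-fold (adjusted p = 3.9e-06). Cyp2c37 rose by 2.31 ± 0.39 from a mean of 7.33 ± 0.91 to 9.64 ± 0.37 (adjusted p = 0.018). Its adjusted p was 0.052 without phenobarbital array 3 and 0.078 without control array 1 and phenobarbital array 1, where 4 members of the family were called. Cyp2c54 and Cyp2c50 were already bright in controls and rose by 1.44 ± 0.07 and 0.84 ± 0.05. In both, the arrays of the groups did not overlap: Cyp2c54 lay between 12.75 and 12.87 after phenobarbital and between 11.18 and 11.58 in controls. These enzymes are close in sequence, so a probe set can also read its neighbours, and the split of the signal among them is uncertain.

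Among the measured genes of the 2C family, induction was uneven along the gene cluster. Of 11 measured members of the CYP2C list 5 rose, against 1.32% of all genes, none fell, and the list median was 0.13. In the order of the genes on chromosome 19, Cyp2c55 and Cyp2c65 stand side by side at the cluster's start, and Cyp2c37, Cyp2c54 and Cyp2c50 stand side by side near its other end. Between them lie genes that did not pass the test: Cyp2c29, one of the brightest P450 genes of mouse liver, read 13.47 ± 0.04 against 13.34 ± 0.05 (change 0.13, adjusted p = 0.13), and Cyp2c39 and Cyp2c38 had changes of -0.89 and -0.68. Cyp2c70 at the far side had a change of 0.00. Cyp2c66, Cyp2c67, Cyp2c40 and Cyp2c69, which lie between Cyp2c65 and Cyp2c37, were not measured. In controls Cyp2c29 was already close to the highest value on any array, 13.99, and whether a ceiling limited its change was not tested.

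In the 2B family only Cyp2b10 of 4 measured members passed, and the list median was 1.21. Cyp2b9, a female-biased P450, had levels of 8.42, 7.81, 8.54, 9.49 and 9.78 after phenobarbital and 7.82, 5.69, 9.14, 8.39 and 7.35 in controls (change 1.13 ± 0.60, adjusted p = 0.37). Cyp2b13 had a change of 1.28 ± 0.44 (adjusted p = 0.17), with treated arrays from 5.54 to 8.11 and controls from 5.21 to 5.71. The groups overlapped in both genes.

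**Figure D2:**
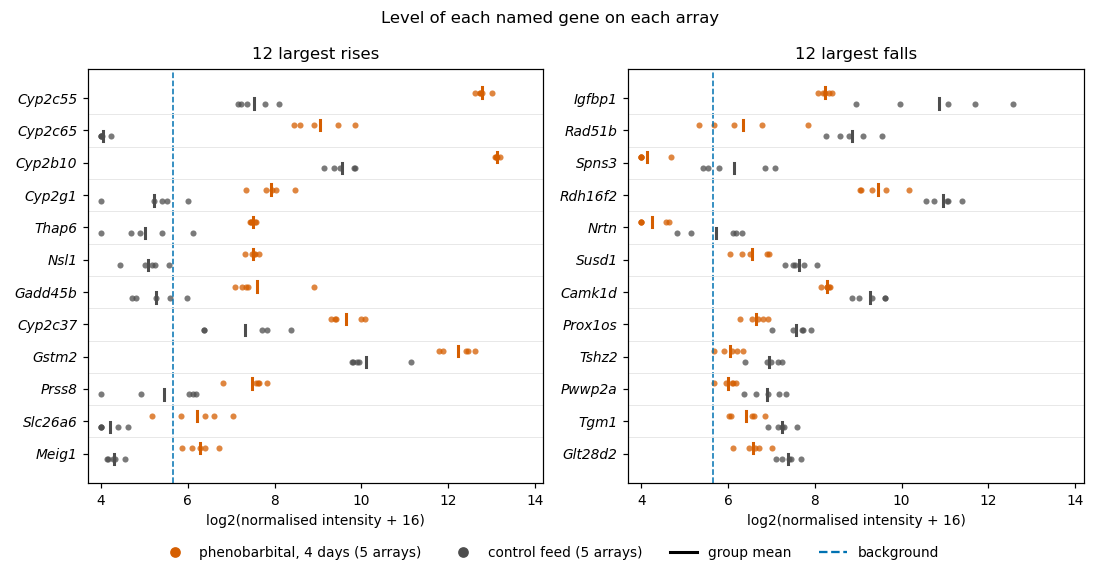
Levels of the 12 largest rises and the 12 largest falls, as log2(normalised intensity + 16), on each phenobarbital array (orange, 5) and each control array (grey, 5), with group means as bars and background as a dashed line. The groups do not overlap for any of the 24 genes by the rule that named them, and the distance between groups is widest for Cyp2c55, Cyp2c65 and Cyp2b10, while many falls are close to the edge of overlap.

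The 250 bases upstream of the transcription start are shown for 4 of the most induced genes because these genes rose together, and motifs were searched in them on both strands. Sequences are from RefSeq on GRCm38.p6, read 5′ to 3′ on the gene's strand, with exact matches to 2 motifs, TATAAA and CCAAT, in capitals. Variants of these letters were not searched, so a capital marks a match and not a working element, and an unmarked stretch may hold a variant. The windows are chr7:25897408-25897657 (+) for Cyp2b10, chr19:39006769-39007018 (+) for Cyp2c55, chr19:39060756-39061005 (+) for Cyp2c65 and chr3:107986421-107986670 (-) for Gstm2.
Cyp2b10: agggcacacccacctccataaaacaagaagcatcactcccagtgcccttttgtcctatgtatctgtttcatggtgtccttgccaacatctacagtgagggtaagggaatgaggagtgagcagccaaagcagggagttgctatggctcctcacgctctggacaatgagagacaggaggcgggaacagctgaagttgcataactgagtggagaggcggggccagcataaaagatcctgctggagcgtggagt
Cyp2c55: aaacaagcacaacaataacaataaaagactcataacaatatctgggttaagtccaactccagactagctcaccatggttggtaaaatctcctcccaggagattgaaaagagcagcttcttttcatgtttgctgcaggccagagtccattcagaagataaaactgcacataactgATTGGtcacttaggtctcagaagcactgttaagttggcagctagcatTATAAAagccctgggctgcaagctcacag
Cyp2c65: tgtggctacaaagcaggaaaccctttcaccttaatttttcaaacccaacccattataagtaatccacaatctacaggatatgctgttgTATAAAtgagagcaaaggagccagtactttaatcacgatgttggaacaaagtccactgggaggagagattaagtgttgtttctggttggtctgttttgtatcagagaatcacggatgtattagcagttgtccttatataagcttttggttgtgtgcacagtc
Gstm2: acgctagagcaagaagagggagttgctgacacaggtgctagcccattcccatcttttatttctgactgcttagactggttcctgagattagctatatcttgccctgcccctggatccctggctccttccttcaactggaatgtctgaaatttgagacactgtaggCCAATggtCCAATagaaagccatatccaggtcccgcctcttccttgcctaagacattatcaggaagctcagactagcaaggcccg
Cyp2c55 holds TATAAA at 24 to 29 bases before the start and CCAAT on the opposite strand at 72 to 76 bases. Cyp2c65 holds TATAAA at 157 to 162 bases, Gstm2 holds 2 copies of CCAAT between 73 and 85 bases, and Cyp2b10 holds neither. None of the 4 windows holds AGGTCA or AGTTCA, half-sites of nuclear receptors, which says only that these letters are not in these windows. The phenobarbital response element of Cyp2b10 is known to lie farther upstream. Of 32851 promoter windows of the same length in the table, 14.0% hold AGGTCA, 11.8% AGTTCA, 12.4% TATAAA and 33.8% CCAAT. Among 13708 tested genes with a promoter matched by symbol the shares were 11.9%, 9.6%, 8.8% and 35.6%, and among those of them that rose after phenobarbital 8.2%, 7.6%, 8.7% and 38.6%.

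Other P450 genes changed less or not detectably. Cyp2g1, known from olfactory mucosa, had levels of 8.03, 7.33, 8.46, 7.93 and 7.80 after phenobarbital and 5.51, 4.00, 6.00, 5.40 and 5.23 in controls, of which 1 was above background (change 2.68 ± 0.34, adjusted p = 0.005). Cyp2d12 was at least 2.35-fold higher, with treated arrays from 6.12 to 7.17 (adjusted p = 0.0082, and 0.063 without control array 1 and phenobarbital array 1). Cyp1a2, which metabolises caffeine and arylamines, rose by 0.75 ± 0.09 from 12.51 ± 0.21 to 13.26 ± 0.08 (adjusted p = 0.0047). These 3 were the members that rose among 19 measured genes of a list of CYP1, 2A, 2D, 2E, 2F, 2G and 2J enzymes. The share of rises over all genes was 1.32%. None of 5 CYP3A and none of 9 CYP4 genes passed. Cyp3a11, the main hepatic CYP3A and a target of the pregnane X receptor, read 13.49 to 13.55 after phenobarbital and 13.40 to 13.49 in controls (change 0.06 ± 0.04, adjusted p = 0.48). The highest value on any array was 13.99.

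Among 24 genes of P450 electron transfer and other oxidation and hydrolysis, 3 rose and 1 fell, against 1.32% and 0.628% of all genes. Ephx1, microsomal epoxide hydrolase, rose by 0.74 ± 0.13 (adjusted p = 0.023), the aldehyde oxidase Aox1 by 0.56 ± 0.11 and cytochrome b5 (Cyb5a) by 0.21 ± 0.04, while Dpyd, which starts pyrimidine breakdown, fell by 0.44 (standard error 0.08). These 4 calls ended in 4 to 8 of the 10 fits that left out 1 array, with adjusted p up to 0.081. Of 11 carboxylesterases, hydrolases of esters and prodrugs, 3 of the Ces2 group rose, against 1.32% of all genes. Ces2a read 13.52, 13.43, 13.53, 13.38 and 13.42 against 12.38, 12.54, 12.42, 12.62 and 12.73, a change of 0.92 ± 0.07 with no overlap (adjusted p = 0.00012). Ces2b rose by 1.5 ± 0.31 and Ces2g by 0.42 ± 0.08, and both calls ended in 8 or 9 of those 10 fits (adjusted p up to 0.099).

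Conjugation genes also rose. Of 20 measured glutathione S-transferases 6 rose, against 1.32% of all genes, and none fell, with a list median of 0.50. Gstm2 had levels of 11.89, 12.45, 12.42, 11.80 and 12.62 after phenobarbital and 9.78, 9.90, 11.15, 9.94 and 9.81 in controls, a change of 2.12 ± 0.27 or 4.35-fold (adjusted p = 0.005). Control array 3 was the highest control and still below all treated arrays. Gstm3 rose by 1.70 ± 0.12 (3.26-fold, adjusted p = 7.8e-05) and Gstm4 by 1.04 ± 0.16 (adjusted p = 0.013, and 0.059 without control array 1 and phenobarbital array 1), while Gstm1, the brightest of the mu class here, rose by 0.51 ± 0.09 to a mean of 13.87. These 4 genes stand side by side on chromosome 3 in the order Gstm3, Gstm2, Gstm1 and Gstm4, and their probe sets may read one another. The theta class genes Gstt3 and Gstt1 rose by 1.66 ± 0.32 and 0.77 ± 0.17. The calls of Gstm1, Gstt3 and Gstt1 ended in 7 or 8 of the 10 fits that left out 1 array (adjusted p up to 0.11), and 2 of the 20 genes were called without control array 1 and phenobarbital array 1.

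Of 12 genes of glucuronidation 3 rose, against 1.32% of all genes. Ugt2b34 rose by 0.59 ± 0.05 (12.92 ± 0.07 against 12.32 ± 0.07, adjusted p = 0.00021), Ugt2b1 by 0.32 ± 0.06, and Ugdh, which makes the UDP-glucuronic acid they use, by 0.48 ± 0.09. Only the first held whichever array was left out, since the calls of the other two ended in 7 or 8 of 10 such fits (adjusted p up to 0.089). Sult1c2 was the single sulfotransferase of 15 sulfation genes to rise, by 1.30 ± 0.21 (adjusted p = 0.014, and 0.062 without control array 1 and phenobarbital array 1). Among 20 transporters, Abcc3 and Abcc4, which export conjugates across the basolateral membrane into blood, rose, against 1.32% of all genes. Abcc3 read 11.80, 12.16, 12.36, 12.30 and 12.06 against 10.80, 11.18, 11.47, 11.24 and 11.25 (change 0.95 ± 0.13, adjusted p = 0.0082), and Abcc4 rose by 1.22 ± 0.18 (adjusted p = 0.011). Abcg5, a subunit of the sterol exporter into bile, fell by 0.75 (standard error 0.16, adjusted p = 0.042), a call that ended in 8 of the 10 fits that left out 1 array.

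**Figure D3:**
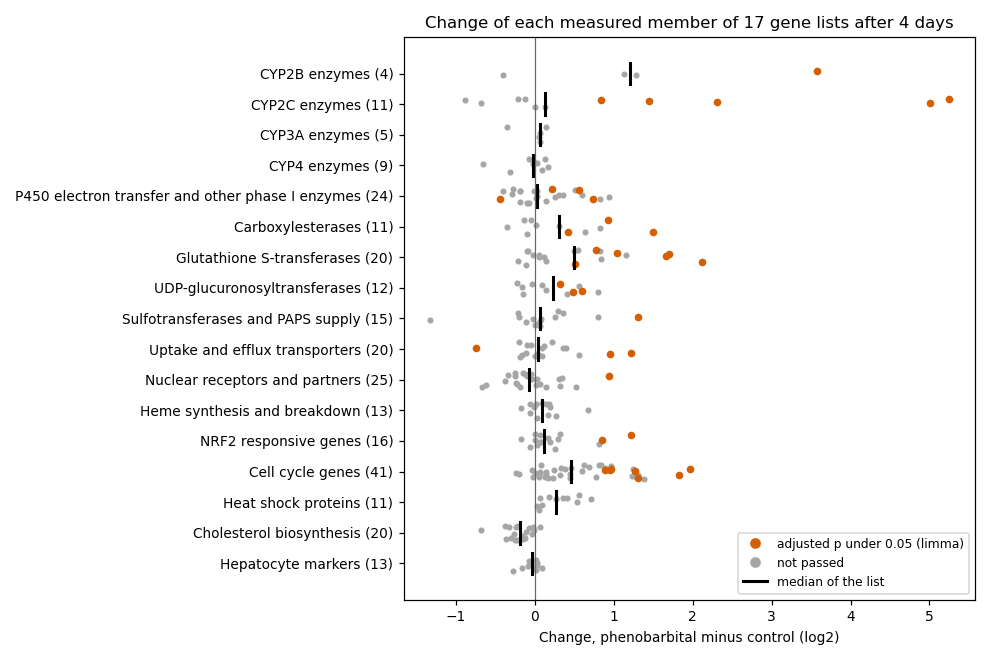
Change on the log2 scale for every measured member of 17 gene lists, phenobarbital minus control, with called genes in orange, the others in grey, the list median as a bar and the number of members in brackets. Called members of the CYP2B, CYP2C and glutathione S-transferase lists lie farthest to the right, while the CYP3A, CYP4, heme, heat shock, cholesterol and hepatocyte marker lists have no called member.

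The receptors themselves did not pass the test. Nr1i3, which encodes CAR, had levels of 9.99, 9.98, 9.54, 10.07 and 10.04 after phenobarbital and 9.76, 10.03, 10.41, 10.42 and 10.23 in controls (change -0.25 ± 0.14, adjusted p = 0.41), and Nr1i2, which encodes the pregnane X receptor, had a change of 0.32 ± 0.13 (adjusted p = 0.24). Of 25 nuclear receptors and partners 1 rose: Ahr, the aryl hydrocarbon receptor, read 9.53, 9.68, 9.43, 9.34 and 9.16 against 8.42, 8.55, 8.76, 8.32 and 8.38, a change of 0.94 ± 0.11 with no overlap (adjusted p = 0.0031). Of 6 genes known to respond to that receptor, Cyp1a2 alone passed. None of 13 heme genes passed, and Alas1, which catalyses the first step of making the heme that P450 proteins carry, had a change of 0.67 ± 0.20 (adjusted p = 0.12), with treated arrays from 10.70 to 11.56 and controls from 9.94 to 10.65. Of 16 genes known to respond to NRF2, the oxidant-sensing factor, Abcc4 and Srxn1 rose. Srxn1 rose by 0.85 ± 0.12 (adjusted p = 0.01), but its 4 probe sets disagreed, with changes from -0.49 to 0.85.

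Growth-related genes rose in 2 groups. Gadd45b, a stress-response gene that CAR is known to activate, had levels of 7.39, 8.90, 7.24, 7.33 and 7.08 after phenobarbital and 5.59, 5.99, 4.81, 5.27 and 4.71 in controls, of which 1 was above background (change 2.31 ± 0.36, adjusted p = 0.014). Its 3 probe sets gave changes of 2.31 to 3.79, and the adjusted p was 0.065 without control array 1 and phenobarbital array 1. Its relative Gadd45a rose by 1.34 ± 0.15 from 6.00 ± 0.30 to 7.34 ± 0.17 (adjusted p = 0.0027). The third member, Gadd45g, had a change of -1.42 ± 0.68 (adjusted p = 0.32), with controls from 6.09 to 9.32 and overlap between the groups.

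Of 41 measured cell cycle genes 7 rose (17.1%, against 1.32% of all genes), none fell, and 37 had a positive change, with a list median of 0.46 against 0.00 for all genes. Of the 41, 29 had a brighter group above background, so some of these signs come from dim genes. Birc5, survivin, which acts in chromosome segregation, had levels of 5.96, 6.24, 7.0, 5.56 and 6.09 after phenobarbital and 4.00, 5.02, 4.00, 4.00 and 4.00 in controls, a difference of at least 1.43-fold (adjusted p = 0.009). Ccnb2, a mitotic cyclin, was at least 1.38-fold higher (6.12 ± 0.76 against 4.29 ± 0.52, adjusted p = 0.037), and 4 of 5 treated arrays measured it, as with Birc5. Mki67, the Ki-67 antigen, rose by 1.30 ± 0.28 (adjusted p = 0.046) and Cdca8, a partner of Birc5 in the chromosomal passenger complex, by 0.95 ± 0.17 (adjusted p = 0.024). Kif20a, Aurkb and Nusap1, all of mitosis, also passed, but their means were below background in both groups and no fold is given. With the mean of probe sets 4 of the 41 genes passed. Cdca8 (change 0.65, adjusted p = 0.15), Nusap1 (0.47, adjusted p = 0.16) and Mki67 (adjusted p = 0.057) then did not. Phenobarbital array 3 was the highest treated array for all 7 genes, and control array 2 was the highest control for Birc5, Ccnb2, Mki67, Cdca8 and Aurkb.

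Among members that did not pass, the replication clamp Pcna had a change of 0.13 ± 0.07, the cyclin Ccnd1 of 0.32 ± 0.23 and the mitotic kinase Cdk1 of 1.23 ± 0.29 (adjusted p = 0.058). Averaged over the 41 genes, the treated arrays lay between 6.05 and 6.88 and the controls between 5.54 and 6.06. Only Birc5 kept its call whichever array was left out, and the number of called genes in the list was 1 to 8 over those fits, 6 on values as deposited and 6 with median centring. When only genes above background were tested, 3 of 23 members passed and 20 changes were positive, with a median of 0.46. No member passed with the replicate number as a block. Without control array 1 and phenobarbital array 1 no gene of the list was called (Birc5, adjusted p = 0.061), although 33 of 41 changes were positive and the median was 0.56. None of 16 p53 targets passed, among them Cdkn1a (change 0.91 ± 0.35, adjusted p = 0.21) and Mdm2 (0.55 ± 0.14, adjusted p = 0.077). In whole liver, more dividing cells and more RNA per dividing cell cannot be told apart, and the same holds for fewer cells of a type and less RNA per cell.

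**Figure D4:**
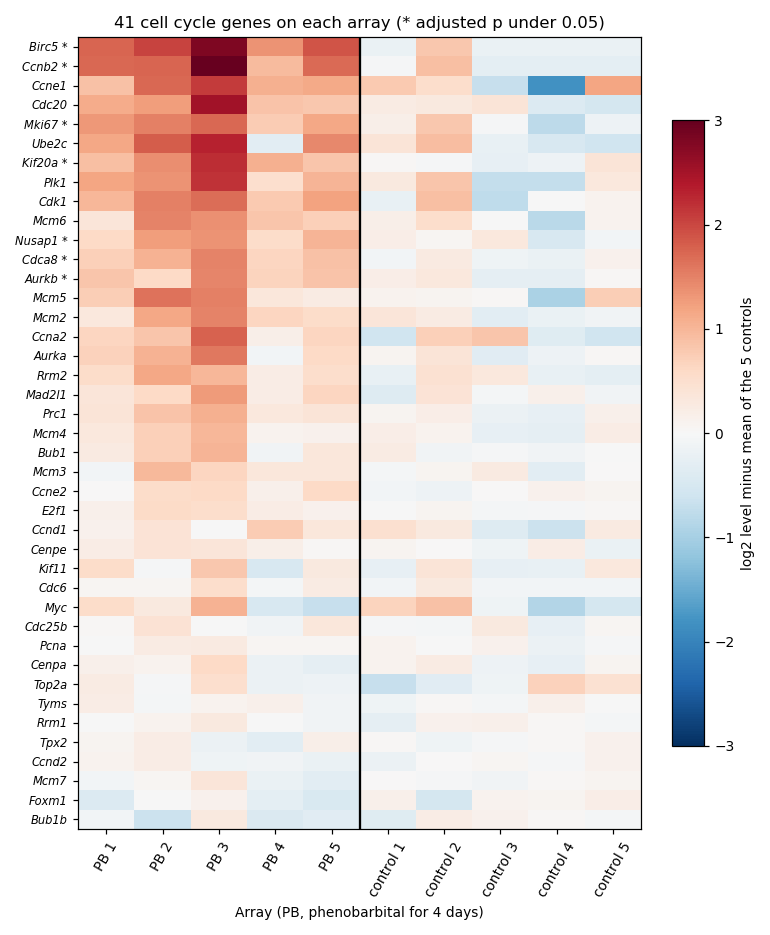
Level of each of 41 cell cycle genes (rows, ordered by their change) on each of the 10 arrays (columns) minus the mean of the 5 controls, on the log2 scale, with red above and blue below that mean and colours capped at 3. Rows near the top, including the 7 called genes marked with an asterisk, are red on all or nearly all treated arrays and strongest on phenobarbital array 3.

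Several of the largest rises were outside drug metabolism. Nsl1, a subunit of the kinetochore complex, read 7.32, 7.64, 7.49, 7.52 and 7.54 after phenobarbital and 4.43, 5.57, 5.25, 5.02 and 5.18 in controls, at least 3.61-fold higher (adjusted p = 0.00014). Thap6, named for a DNA-binding domain, read 7.43, 7.46, 7.58, 7.45 and 7.54 against 4.00, 4.68, 6.11, 5.40 and 4.90 (change 2.47 ± 0.32, adjusted p = 0.005), and 1 control was above background. In both genes the treated arrays were almost identical and the controls scattered around background. Each gene has 1 of 2 probe sets above background, and the mean of both probe sets gave changes of 1.33 for Nsl1 and 1.39 for Thap6. For Meig1, known from sperm formation, the difference was at least 1.54-fold (adjusted p = 0.00021). For the anion exchanger Slc26a6, above background on 4 of 5 treated arrays, it was at least 1.48-fold (adjusted p = 0.013, and 0.088 without control array 1 and phenobarbital array 1). Prss8, the membrane protease prostasin, rose by 2.04 ± 0.41 (adjusted p = 0.039), a call that ended in 6 of the 10 fits that left out 1 array (adjusted p up to 0.089).

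Few falls were large. Igfbp1, which binds insulin-like growth factors and is repressed by insulin, had levels of 8.23, 8.40, 8.07, 8.32 and 8.19 after phenobarbital and 11.08, 12.58, 11.69, 8.94 and 9.97 in controls, a change of -2.61 ± 0.56 or 6.11-fold lower (adjusted p = 0.046). The controls spread from 8.94 to 12.58 while the treated arrays lay between 8.07 and 8.40, and the call ended when any array but control array 4 was left out (adjusted p up to 0.11). Rad51b, a DNA repair gene, fell by 2.51 (standard error 0.44, adjusted p = 0.022), from 8.86 ± 0.50 to 6.35 ± 0.99. Its adjusted p was 0.057 without control array 1, 0.059 without phenobarbital array 3 and 0.056 without phenobarbital array 5, and 0.091 without control array 1 and phenobarbital array 1 together. Of its 2 probe sets 1 was above background, and their mean gave a change of -1.30.

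Rdh16f2, a retinol dehydrogenase of the Rdh16 family, read 9.07, 9.04, 9.65, 9.32 and 10.18 after phenobarbital and 11.40, 11.05, 10.74, 10.57 and 11.06 in controls (change -1.51 ± 0.23, 2.85-fold lower, adjusted p = 0.011). Camk1d, a calcium-dependent kinase, read 8.14 to 8.34 against 8.86 to 9.62 (change -1.01 ± 0.14, adjusted p = 0.0086). These were the 2 of the 12 largest falls whose calls held whichever array was left out, though Rdh16f2 did not pass without control array 1 and phenobarbital array 1 together (adjusted p = 0.063). Spns3 was at least 1.40-fold lower (adjusted p = 0.018, and 0.051 without phenobarbital array 3), measured on 3 of 5 controls. Nrtn, the growth factor neurturin, was at least 1.05-fold lower, also measured on 3 of 5 controls. Susd1, Prox1os, Tshz2, Pwwp2a, Tgm1 and Glt28d2 fell by 1.09, 0.93, 0.89, 0.88, 0.83 and 0.79 on the log2 scale. The calls of Nrtn and of these 6 ended in 5 to 9 of the 10 fits that left out 1 array, with adjusted p up to 0.11.

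Most other liver functions had few called genes or none. Of the 51 gene lists, 23 had no called member, including cholesterol synthesis (20 genes), fatty acid oxidation (29), bile acid synthesis (16), heat shock proteins (11), complement and coagulation (28) and the mitochondrial respiratory chain (29). Their medians ran from -1.53 for pancreas markers to 0.27 for heat shock proteins, and 19 of 20 cholesterol synthesis genes had a negative change, with a median of -0.19. All 11 heat shock genes and 22 of 26 proteasome genes had a positive change, so a list without a call can still lean to 1 side. Dio1, which activates thyroid hormone, rose by 1.66 ± 0.36 (adjusted p = 0.049). Lect2, a secreted protein of pericentral hepatocytes, rose by 0.81 ± 0.10, with levels of 12.05, 11.69, 11.80, 11.75 and 11.98 against 10.89, 10.86, 11.31, 11.15 and 11.01 (adjusted p = 0.0046), and with Cyp1a2 it was 1 of 2 risers among 19 pericentral genes. The antioxidant genes Txn1 and Glrx rose by 0.37 ± 0.06 and 0.57 ± 0.11, and Elovl1, a fatty acid elongase, by 0.66 ± 0.13.

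Small falls passed in Hal and Cbs, which break down histidine and homocysteine (-0.33 and -0.40), in Ghr, the growth hormone receptor (-0.22 ± 0.05), and in Atf4, a factor of the integrated stress response (-0.52 ± 0.11). Igf1, which growth hormone induces in liver, had a change of -0.23 ± 0.07 (adjusted p = 0.11), although its arrays did not overlap. Of 23 acute phase genes Crp rose by 0.29 ± 0.05 and Fgb, a fibrinogen chain, fell by 0.20. Serpina4-ps1, a male-biased pseudogene, fell by 1.25 (standard error 0.22, adjusted p = 0.024), from 11.98 ± 0.37 to 10.72 ± 0.43, 1 of 15 male-biased genes to pass. The calls in this and the preceding paragraph ended in 4 to 9 of the 10 fits that left out 1 array (adjusted p up to 0.12), except those of Lect2 and Cyp1a2, which held, and that of Txn1, which ended only without control array 1 (adjusted p = 0.059).

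Among markers of other cell types, 2 of 9 biliary and progenitor genes rose, against 1.32% of all genes. Prom1, a membrane protein of progenitor cells that is also female-biased in liver, read 7.76, 6.26, 6.54, 7.15 and 7.66 after phenobarbital and 5.41, 4.68, 5.71, 5.03 and 5.02 in controls (change 1.90 ± 0.31, adjusted p = 0.017), with 1 control above background. Sox9, a bile duct and progenitor factor, rose by 1.31 ± 0.23 (adjusted p = 0.021, up to 0.059 with 1 array left out). With the mean of its probe sets the change of Sox9 was 0.39 and did not pass (adjusted p = 0.31). Krt19 was below background on all arrays but phenobarbital arrays 1 and 5, and averaged over the 9 genes the treated arrays lay between 5.79 and 6.80 and the controls between 5.33 and 5.76. Without control array 1 and phenobarbital array 1 neither Prom1 nor Sox9 was called (adjusted p = 0.071 and 0.065), and the part of a change in bile duct cells in these rises was not tested. No macrophage (16), endothelial (15), lymphocyte (14) or neutrophil (9) marker passed, and among 17 stellate markers Timp1 passed below background.

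The question whether the 4-day changes were still present after a longer time was asked with the separate animals of day 30, which had 5 mice on phenobarbital at the same dietary level and 5 on control feed. Of the 227 genes that rose on day 4, 214 (94.3%) had a positive change on day 30, against 48.1% of all genes, with a median of 0.33. Of the 108 that fell, 101 (93.5%) had a negative change, with a median of -0.20. Their medians on day 4 were 0.63 and -0.42, values that chose the genes. Cyp2c55 and Cyp2b10 had changes of 5.34 and 4.11 on day 30. Cyp2c65 had a treated mean of 10.70 ± 0.22 on day 30, with controls below background on both days, so no size is given for its difference between days, which did not pass (adjusted p = 0.19).

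The change on day 4 minus that on day 30 passed the test in 1 of 17433 genes (0.00574%), and 1197 had an unadjusted p under 0.05. That gene was Moxd1, a monooxygenase homologue. Its means were 4.14 ± 0.30 and 4.22 ± 0.24 in treated mice and controls on day 4, and 9.42 ± 1.19 and 4.12 ± 0.22 on day 30, where treated mice were at least 13.9-fold higher than controls (adjusted p of the difference = 0.00012). The other 3 means were below background, and the fitted difference ran from -7.35 to -3.53 over the alternatives. When all 38 arrays were fitted together Moxd1 did not pass (adjusted p = 0.41) and 1 other gene did. The 7 called cell cycle genes had changes of -0.05 to 0.58 on day 30, where 31 of 41 members were positive with a median of 0.16. Birc5 had a treated mean of 4.51 ± 0.78 on day 30, with 1 of 5 arrays above background, and its difference between days did not pass (adjusted p = 0.52). Cyp2b9 had changes of 1.13 and 3.41, with a difference of -2.28 ± 0.77 (adjusted p = 0.62).

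A second inducer at the same time, triadimefon (spelled tridimefon in the labels' protocol), a triazole fungicide, was fed at 1800 ppm with an intake of 257.1 ± 33.5 mg/kg/day to 3 mice that had 3 controls of their own. Doses differed, and the compound cannot be told apart from its dose or from the experiment it was run in, so each change is from its own controls. Of the 227 genes that rose after phenobarbital, 193 (85.0%) had a positive change after triadimefon, against 48.4% of all genes, and 81 of the 108 that fell (75.0%) had a negative one. Cyp2c55 had changes of 5.18 after phenobarbital and 5.31 after triadimefon (difference -0.12 ± 0.39, adjusted p = 0.92), and Cyp2b10 of 3.57 and 4.46 (difference -0.89 ± 0.37, adjusted p = 0.27). Cyp2c65 had treated means of 8.84 and 6.54 with both control groups below background, and its difference had an adjusted p of 0.11. None of these 3 differences passed.

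The difference between the changes passed in 0.919% of 17519 genes, 71 with the higher change after phenobarbital (0.405%) and 90 with the lower (0.514%). The split moved to 44 higher and 90 lower with median centring and to 43 and 433 on values as deposited, where the median of all genes shifted to -0.172. When all 38 arrays were fitted together 8 genes passed, and without control array 1 and phenobarbital array 1 the count was 17. It was 42 to 103 without any 1 of the phenobarbital experiment's arrays other than phenobarbital array 2, and 260 to 368 without triadimefon array 2 or 3 or conazole control array 3. Thap6 had changes of 2.32 after phenobarbital and -0.38 after triadimefon (difference 2.70 ± 0.52, adjusted p = 0.031), and the difference of Slc26a6, at the floor on all 6 arrays of the triadimefon experiment, also passed (adjusted p = 0.039). Itpkb, Plcb3, Angptl6 and Ust had phenobarbital changes of -0.24 to 0.32 and triadimefon changes of -2.37 to -2.01, with triadimefon means below background for all 4, so that these sizes depend on the pseudocount.

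In the other direction, Alas1 had changes of 0.67 and 3.28 (difference -2.61 ± 0.40, adjusted p = 0.013) and Cyp26a1, which breaks down retinoic acid, of 0.50 and 2.90 (difference -2.40 ± 0.51, adjusted p = 0.041). The experiments' control means were unequal for these genes: Alas1 had 10.15 in the phenobarbital experiment's controls and 8.16 in the conazole controls, and Cyp26a1 had 10.02 and 8.36. After treatment the means were closer, at 10.82 and 11.44 for Alas1 and at 10.52 and 11.25 for Cyp26a1. Layn, Sptbn4 and Rmnd5b had phenobarbital changes of -0.43, -0.12 and -0.35 and triadimefon changes of 1.80, 2.03 and 1.76, with conazole control means below background, so that these sizes too depend on the pseudocount. The call was lost in 20 of 29 alternatives for Angptl6 and for Rmnd5b, in 16 for Cyp26a1 and in 15 of 28 for Slc26a6, but in 3 of 29 for Alas1.

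**Figure D5:**
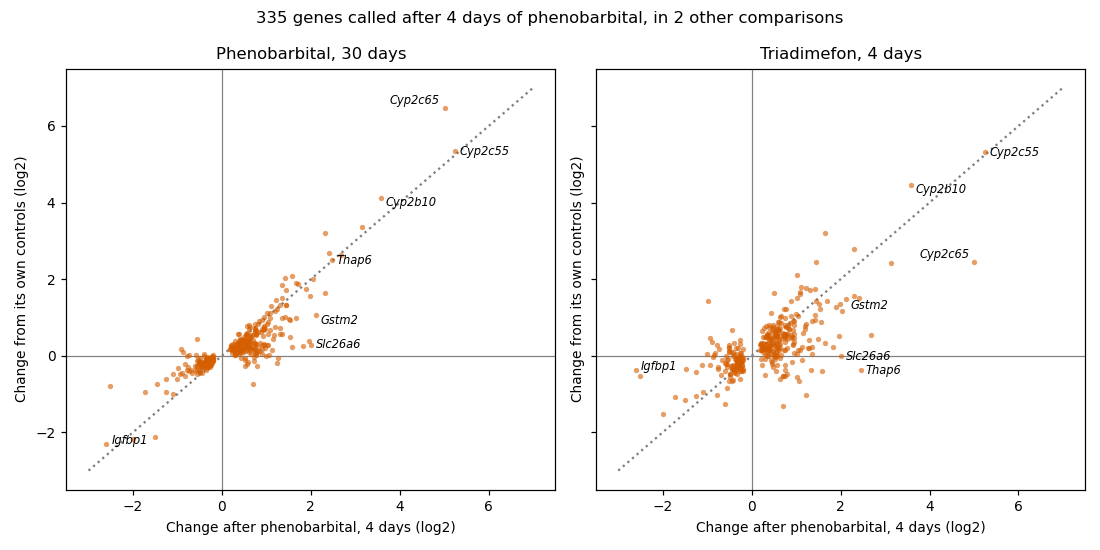
Change of the 335 genes called after 4 days of phenobarbital (horizontal, log2) against their change after 30 days of phenobarbital (left) and after 4 days of triadimefon (right), each from its own controls, with the dotted line marking equal changes. Cyp2c55 and Cyp2b10 lie near the line in both panels, Cyp2c65 lies above it on the left and below it on the right, and Thap6 and Slc26a6 lie near 0 after triadimefon, while positions of genes whose controls are below background, such as Cyp2c65, depend on the pseudocount.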

How the data were processed

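The values the authors deposited are linear intensities by probe set. On these 10 arrays 19.72% were below 0. Which software summarised the probes: not given in the sources used here. Per the labels' protocols, RNA was purified on RNeasy columns and 4 ug was amplified with an Enzo kit. No pair of arrays held identical values. Arrays of a fit were quantile normalised together, values below 0 set to 0 and log2(value + 16) taken. Of 45101 probe sets the platform annotation lists 35890. The 34958 with 1 symbol were used and the 932 with several left out, giving 18194 genes. The probe set with the highest mean represented a gene, and 983 constant genes were not tested. Changes were tested by limma 3.58.1 (R 4.3.3) and its trended eBayes (8 residual and 2.51 prior degrees of freedom), two-sided. Genes were called at an adjusted p under 0.05. On simulated data the fit over 17211 genes recovered 86 of 100 changes of 1 and 99 of 100 of 2 on the log2 scale, with 16 false among 201 calls. On the 10 arrays the 335 calls fell to 122 without control array 1. Whether the figures from simulated data hold for these arrays was not tested. The labels do not state litters or cages, so p-values measure the spread between these samples.

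The differences from day 30 and from triadimefon were interaction contrasts over 20 and 16 arrays. Named were the 12 largest rises and falls among called genes with separate groups and a brighter mean above background. Also named were 5 per direction for the differences and members of 51 lists (785 genes measured). Clone names and probe sets with names ending in _x_at were left out of the ranked choices, and cross-hybridisation itself was not tested. Members and lists were chosen with earlier results of these data known. Equal replicate numbers did not pair the arrays. The number of arrays and the signal over background limit precision.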

Additional observations from a re-analysis of the deposited data

Results flagged for a closer look

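Among the 92 named genes, 20 groups of 5 arrays (10.9% of the treated and control groups) held an array far from the other 4 by Dixon's criterion. Chance gives about 1 in 20 for values that vary freely, a rate that cannot serve as a comparison here. Some genes, such as Cpa1, Clps, Krt19 and Mgst2, were shown because an array stood apart. In some groups, such as the controls for Birc5, the other 4 arrays were at the floor. Control array 1 stood out for Cpa1 (12.70) and Clps (12.66), and phenobarbital array 1 for Clps (10.82), Krt19 (9.84), Mgst2 (8.29) and Cpa1 (4.62). Phenobarbital array 3 was apart for Gstt1 (11.73), Ugt2b1 (13.49), Nr1i3 (9.54) and Aurkb (5.74). Phenobarbital array 4 was apart for Prss8 (6.81), Spns3 (4.69) and Cyp2d12 (6.12), and phenobarbital array 2 for Gadd45b (8.90) and Moxd1 (4.68). Among controls, array 2 was apart for Birc5 (5.02) and Ccnb2 (5.19), array 3 for Gstm2 (11.15) and Crp (12.25), and array 5 for Cyp2c65 (4.23).

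The change of Moxd1 on day 4 minus that on day 30 was -5.39 in limma's interaction test (adjusted p = 0.00012). The change after phenobarbital minus that after triadimefon, by the same test, was 2.70 for Thap6, 2.34 for Itpkb, 2.21 for Plcb3, 2.19 for Angptl6, 2.13 for Ust and 1.93 for Slc26a6. It was -2.61 for Alas1, -2.40 for Cyp26a1, -2.23 for Layn, -2.15 for Sptbn4 and -2.10 for Rmnd5b. Adjusted p ran from 0.0021 for Layn to 0.048 for Rmnd5b. All of these genes but Alas1 and Cyp26a1 are below background in some of the groups compared, so their sizes depend on the pseudocount. They are Moxd1, Thap6, Slc26a6, Itpkb, Plcb3, Angptl6, Ust, Layn, Sptbn4 and Rmnd5b. Over the alternatives Moxd1 ran from -7.35 to -3.53 and Slc26a6 from 0.86 to 3.27.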

How the results depend on the processing

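After 4 days 335 genes were called, 1.95% of those tested. The share was 0.918% on values as deposited (137 higher and 21 lower), 1.03% with median centring, 1.15% with the mean of probe sets, 1.25% with no intensity trend, 0.677% in 1 fit to all 38 arrays and 3.77% among genes above background, where fewer genes were tested. With the replicate number as a block it was 0.192% (31 higher and 2 lower), and with 1 array left out 0.71% to 1.80%. Leaving out control array 1 and phenobarbital array 1, chosen after seeing the data, gave 0.42%. The cause of these shifts was not tested. Arrays of equal number did not deviate together (correlations from -0.10 to 0.03), so they share only a number. The day 30 difference (1 gene) gave 2 with pseudocount 64, the probe set of largest variance or the mean of probe sets, 0 among genes above background (801 at an unadjusted p under 0.05 in limma), and 1 to 4 with 1 array left out. The triadimefon difference (71 higher and 90 lower) gave 476 as deposited, 106 with the mean of probe sets, 8 in 1 fit to all 38 arrays, 0 with the replicate block (2426 at an unadjusted p under 0.05 in limma), 17 without those 2 arrays and 42 to 368 with 1 array left out. Srxn1 turned to -0.49 with the probe set of largest variance. Clps, not called, was 0.27 with pseudocount 4, 0.38 without those 2 arrays and -1.16 to 1.48 with 1 array left out. Of 71 called named genes, 14 kept the call under every alternative. Dim genes are limited by their signal over background.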
